A study of Mus musculus with 59 samples.

Results

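Ion channel and connexin genes were followed through infarct, remote and sham left ventricle of the mouse over 6 times after surgery. Of 8251 genes with a probe set assigned to that gene alone, 78 had a symbol that begins with Kcn (potassium channels), Scn and a digit (sodium channels), Cacn (calcium channels), Hcn (pacemaker channels), Clcn (chloride channels and exchangers) or Gja, Gjb or Gjc and a digit (connexins). Measured values played no part in that choice. The probe set with the highest mean stood for a gene, and 35 genes are called measured here, with mean intensities over the 59 arrays of 108.6 or more. The other 43, with means from 3.3 to 106.1, are called near background. Just inside the limit were Kcnma1 (108.6), Scn7a (108.9), Kcns2 (112.7), Clcn2 (113.0) and Kcnk1 (113.6), and just outside it were Kcnab2 (106.1), Clcn5 (101.0) and Kcne1 (92.4).

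The arrays were hybridised with total RNA of ventricular tissue from mice with a myocardial infarction and from sham-operated mice, taken 1, 4, 24 and 48 h, 1 week and 8 weeks after surgery. The infarct piece ran from the left anterior descending coronary artery to the apex, and the remote piece of infarcted mice lay above that artery. Sham mice gave an upper piece, above the artery, and at 5 times also a lower piece. Infarct, remote and sham upper had 3 arrays each at every time, and sham lower had 1 array at each time but 8 weeks. The labels name the sham upper piece as the control for both regions, so infarct and control tissue differed in position in the ventricle as well as in infarction. The labels give no strain, sex or age, and do not say how the infarction was made. The 3 arrays of a group are numbered 1 to 3 in the order in which their values are printed. The labels number the samples but do not state that a number marks a mouse, so p-values measure the spread between these samples.

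In a ventricular myocyte, sodium and L-type calcium channels carry the inward currents that start and sustain the action potential, and calcium entry through the L-type channel triggers contraction. Potassium channels then repolarise the cell: transient outward and delayed rectifier channels during the action potential, and inward rectifier and two-pore channels near the resting potential. Connexins form the gap junctions through which the current passes from cell to cell, and in the working ventricle most of them are made of the Gja1 product.

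All arrays were scaled to nearly the same trimmed mean (499.2 to 499.9). From 1 h to 48 h the numbers of sham samples and of infarcted samples fall in separate ranges, so infarction cannot be told apart from any difference in handling between those number ranges. The summed intensity of 7 cardiomyocyte markers (Myh6, Tnnt2, Tnni3, Actc1, Myl2, Mb and Ryr2) was 112292 to 124179 in infarct against 136730.4 to 158364 in sham upper at 24 h, 81186 to 102277 against 136013 to 168208 at 48 h, and 19355 to 56479.8 against 137763 to 156554 at 1 week. At 8 weeks the sum was 90785 to 130111 in infarct against 150267 to 154453 in sham upper. None of the 7 was called lower in infarct at 24 h (median log2 difference -0.28), and 7 of 7 were at 48 h (median -0.78) and at 1 week (median -2.21). At 8 weeks only Actc1 was called lower (-0.30). In remote tissue 0 of 7 were called at 48 h (median -0.06) and 1 of 7 was lower at 1 week (median -0.39). Macrophage markers were higher at 1 week for 7 of 7 genes in both regions, and fibroblast markers for 5 of 7. In these bulk samples, fewer cells of a type and less RNA per cell cannot be told apart, and the part of cell composition in the channel results was not tested. Arrays that stood apart included remote array 1 at 4 h, with an adipocyte marker sum of 3687 (against 765 and 612 in its group). Remote array 3 at 24 h had a neutrophil marker sum of 4609 (against 1034 and 1624). Remote array 2 at 1 h had an atrial marker sum of 5859 (against 1139 and 1646 in its group). Infarct array 3 at 1 week had a cardiomyocyte sum of 19355. Remote array 3 at 1 week had a cardiomyocyte sum of 98922 (against 122800 and 120279) and a macrophage sum of 16060.4 (against 10314 and 10536). Infarct array 3 at 8 weeks had an adipocyte marker sum of 4818 (against 671.5 and 1545). It also had the lowest cardiomyocyte sum of its group, 90785, and the highest fibroblast sum, 62656.5 (against 31612 and 46438). Where a call described here was lost without one of them, this is said beside it.

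Few of the measured channel and connexin genes were called in the first hours, and the shares were near those over all genes. Most of the measured genes called in infarct tissue from 24 h to 1 week were lower. At 24 h the share called lower was also near that over all genes. A gene is called when its limma test passes an adjusted p of 0.05, with Benjamini-Hochberg adjustment over all 6670 genes tested. Differences are on the scale log2(intensity + 45.6), which understates changes of low values, and are given with their standard error. At 1 h, 1 of 35 measured genes was higher and 1 lower in infarct than in sham upper (3.66% and 3.12% of all genes tested, 6.78% together). At 4 h, 1 was higher and 4 were lower (5.25% higher and 6.69% lower over all genes, 11.9% together).

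At 24 h, 10 of 35 were lower and 1 was higher, beside 18.6% higher and 24.0% lower over all genes, 42.6% together. At 48 h, 19 were lower and none was higher, beside 25.1% higher and 25.8% lower over all genes, 50.9% together. At 1 week, 15 were lower and 3 higher, beside 34.9% higher and 25.7% lower over all genes, 60.5% together. Falls of at least 1 log2 unit made up 8, 7 and 13 of the 35 at these times, against 4.51%, 7.62% and 11.5% of all genes. At 8 weeks 4 were lower and 1 was higher (11.5% higher and 9.66% lower over all genes, 21.1% together). The median difference of the 35 was -0.54 at 48 h and -0.33 at 1 week, against -0.04 and 0.11 over all genes. Over the 6 times 18 genes were called only lower, 3 only higher, 2 in both directions and 12 never. This split was not counted over all genes, so it is not read as a trait of these 35. Tested over all 6 times at once, 22 of 35 differed from sham in infarct (77.7% of all genes) and 13 of 35 in remote tissue (42.2%). The infarct difference itself changed with time for 21 of 35 genes (moderated F test over the 6 differences; 64.7% of all genes).

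**Figure D1:**
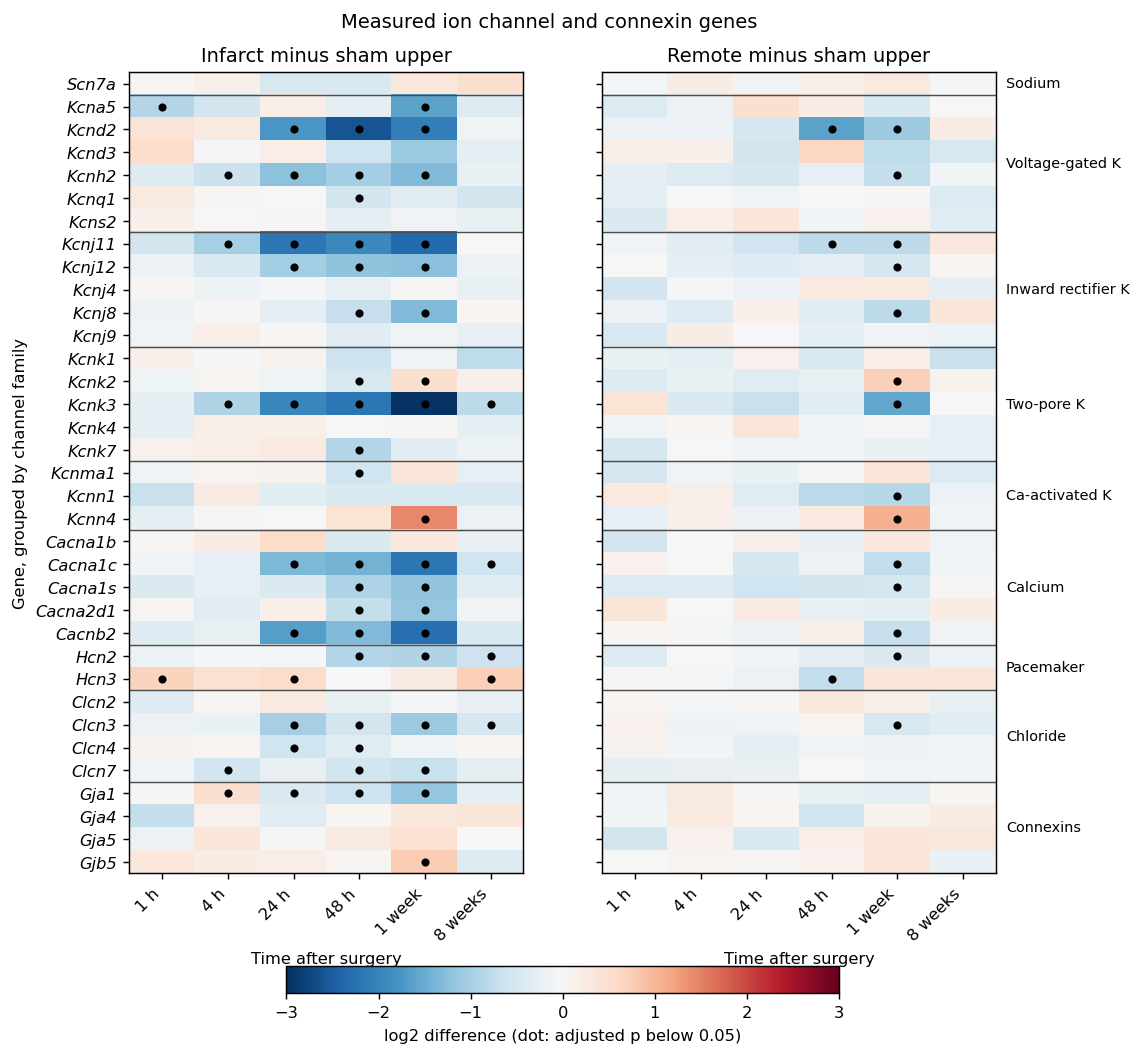
Log2 difference from sham upper of the 35 measured genes (rows, grouped by family) in infarct (left) and remote tissue (right) at 6 times after surgery (columns), with blue for lower, red for higher and a dot for an adjusted p below 0.05. Most dots lie in blue cells of the infarct panel from 24 h to 1 week, and the remote panel has most of its dots at 1 week.

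Of the channels that carry inward current, 4 of 5 measured calcium channel genes were called lower in infarct at 1 week. Over all genes 25.7% were lower at that time. Cacna1c, which encodes the pore of the L-type channel, read 1204, 908 and 1391 in infarct and 3168, 2666 and 3160.5 in sham at 24 h, and 774, 626 and 320.5 against 2629.9, 2662 and 2455 at 1 week. The infarct arrays lay below all sham arrays at both times. The differences were -1.34 ± 0.20 (adjusted p = 4.3e-07) at 24 h, -1.43 ± 0.20 (adjusted p = 7.1e-08) at 48 h and -2.16 ± 0.20 (adjusted p = 1.4e-12) at 1 week. Remote tissue took a middle place at 1 week, with 1696, 1861 and 1117 and a difference from sham of -0.74 ± 0.20 (adjusted p = 0.0023). Without infarct array 3 the 1 week fall was -1.86. At 8 weeks the infarct arrays read 2236, 1893 and 1099 against 2259.5, 2688 and 2711, a difference of -0.59 ± 0.20 (adjusted p = 0.026) that was no longer called without sham array 2 (-0.55), sham array 3 (-0.55) or infarct array 3 (-0.31).

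Cacnb2, the beta subunit that carries the pore to the membrane, read 407, 411 and 204 in infarct and 1397, 1749 and 2193 in sham at 1 week. The groups did not overlap, and the fall was -2.27 ± 0.26 (adjusted p = 9.4e-10). Its differences at 24 h and 48 h were -1.66 ± 0.26 and -1.32 ± 0.26, both called. At 8 weeks it read 1298, 1337 and 604 against 1925, 1125 and 1275, which overlap, and the difference of -0.45 ± 0.26 was not called. In remote tissue at 1 week the values were 1318, 1029.5 and 889.8 (-0.69 ± 0.26, adjusted p = 0.035). That remote call was lost without sham array 2 (-0.69), sham array 3 (-0.53), remote array 2 (-0.65) or remote array 3 (-0.61), and also with quantile normalization.

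The auxiliary subunit gene Cacna2d1 moved later: infarct arrays read 296, 510.3 and 461 at 24 h against 288, 491 and 348 in sham, which overlap, and 216, 175 and 135 against 412, 488 and 441 at 1 week. Its differences were -0.73 ± 0.19 (adjusted p = 0.0018) at 48 h and -1.17 ± 0.19 (adjusted p = 1.6e-06) at 1 week, and it was not called in remote tissue. Cacna1s, the pore gene of the skeletal muscle L-type channel, read 73.7, 19.7 and 51.1 in infarct, 126, 98.3 and 78.4 in remote and 148, 202 and 140.5 in sham at 1 week. Infarct and remote both lay below sham, with differences of -1.19 ± 0.19 (adjusted p = 1.1e-06) and -0.52 ± 0.19 (adjusted p = 0.032). The remote call was lost without sham array 2 (-0.39) or remote array 3 (-0.40). Cacna1b, which encodes a calcium channel pore of neurons, was not called at any time in either region.

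Scn7a, an atypical sodium channel gene, was the only measured one of 6 sodium channel genes, and it lay close to the limit. It read 38.5, 62.2 and 48.7 in infarct, 130.3, 135 and 59.7 in remote and 35.7, 113 and 127 in sham at 48 h. The infarct and sham arrays overlap, and it was not called against sham in either region. Infarct against remote at 48 h gave -0.66 ± 0.20 (adjusted p = 0.0068), those arrays overlap too, and the call was lost without infarct array 1 (-0.55), remote array 1 (-0.52) or remote array 2 (-0.53).

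Among genes of the currents that repolarise the action potential, Kcnd2, a pore gene of the fast transient outward current, fell to values below the limit for measured genes, where the size of a fall is only approximate. It read 444, 435 and 485 in infarct and 353, 294 and 478 in sham at 4 h. By 24 h the infarct arrays were at 47.7, 17.5 and 83.2 against 344, 241 and 208, and at 48 h at 19.0, 31.0 and 26.6 against 313, 389.4 and 445. The groups overlap at 4 h and are apart at 24 h, 48 h and 1 week, with differences of -1.74 ± 0.33 (adjusted p = 3.1e-05), -2.58 ± 0.33 (adjusted p = 1.4e-08) and -2.07 ± 0.33 (adjusted p = 6.5e-07). Remote tissue was lower as well, at 117, 112 and 60.8 at 48 h (-1.60 ± 0.33, adjusted p = 0.0011) and 94.5, 52.5 and 86.3 at 1 week (-1.08 ± 0.33, adjusted p = 0.0075). The 1 week remote call was lost without remote array 2 (-0.90). At 8 weeks the infarct arrays spread from 32.5 on array 3 to 435 on array 1, across the sham values of 176, 194 and 215. A second Kcnd2 probe set was lower in infarct as well, with -0.60 at 24 h, -1.49 at 48 h and -1.02 at 1 week.

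Kcnh2, which encodes the pore of the rapid delayed rectifier, fell earlier and stayed low to 1 week. It read 648, 751 and 626 in infarct and 1179, 1101 and 974 in sham at 4 h, and 365, 347 and 328.7 against 1055, 852 and 904 at 1 week. All infarct arrays lay below all sham arrays at these times. The differences were -0.65 ± 0.17 (adjusted p = 0.0088) at 4 h, -1.24 ± 0.17 (adjusted p = 1.8e-07) at 24 h, -1.03 ± 0.17 (adjusted p = 3.0e-06) at 48 h and -1.32 ± 0.17 (adjusted p = 1.2e-08) at 1 week. Remote tissue at 1 week read 662.6, 513 and 484, a difference of -0.72 ± 0.17 (adjusted p = 8.5e-04). At 8 weeks infarct (940.3, 640.0 and 602) and sham (791, 819 and 926) overlap.

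Upstream sequence is shown for these 2 repolarisation genes that fell, as 200 bases before the transcript start in the RefSeq table, build GRCm38.p6, 5′ to 3′ on the gene's strand, with capitals for matches to the motifs named below. The Kcnd2 stretch is chr6:21215146-21215345 (plus strand) and the Kcnh2 stretch chr5:24329592-24329791 (minus strand). The Kcnd2 stretch ends at the outer start of the annotated gene, while the Kcnh2 stretch lies inside the annotated gene (24319589 to 24351684), before an internal transcript start.
Kcnd2: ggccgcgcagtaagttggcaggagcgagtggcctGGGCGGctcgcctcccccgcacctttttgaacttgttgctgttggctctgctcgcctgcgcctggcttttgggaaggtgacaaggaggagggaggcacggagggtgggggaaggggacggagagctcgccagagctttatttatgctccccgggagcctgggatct
Kcnh2: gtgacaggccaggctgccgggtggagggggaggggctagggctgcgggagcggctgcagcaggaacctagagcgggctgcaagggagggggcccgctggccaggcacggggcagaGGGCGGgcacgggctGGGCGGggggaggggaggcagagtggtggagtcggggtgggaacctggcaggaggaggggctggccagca
The capitals mark the GC box letters GGGCGG, 1 match in Kcnd2 (166 to 161 bases before the start) and 2 in Kcnh2 (85 to 80 and 70 to 65). 6 motifs were searched on both strands: GGGCGG, the TATA box TATAAA, the CCAAT box CCAAT, the AP-1 site TGANTCA, the GATA site AGATAA and a MEF2 site. Of all 32851 upstream windows of this length in the RefSeq table, 31.0% held GGGCGG, 9.96% TATAAA, 29.3% CCAAT, 5.48% TGANTCA, 7.8% AGATAA and 2.49% the MEF2 site. Of 40 windows of the 30 measured channel and connexin genes found in the table, 52.5% held GGGCGG, 2.5% TATAAA, 15.0% CCAAT, 5.0% TGANTCA, 5.0% AGATAA and 2.5% the MEF2 site, and their median GC content was 60.2% against 53.0% over all windows. A match is a description of letters and not a bound site.

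Kcna5, the gene of the ultrarapid delayed rectifier pore, read 371, 289.5 and 218 in infarct and 1060.2, 813 and 1023 in sham at 1 week, with no overlap (-1.59 ± 0.26, adjusted p = 8.6e-07). The remote arrays at that time (976, 472 and 691) overlap the sham arrays. It was also lower in infarct at 1 h (530.4, 866 and 692 against 1289, 1665 and 992; -0.87 ± 0.26, adjusted p = 0.031). That early call was lost without sham array 1 (-0.87), sham array 2 (-0.69), infarct array 1 (-0.72) or infarct array 3 (-0.87). Between these times, at 24 h, it read 902, 1105 and 798 against 685, 625 and 1176, and the groups overlap.

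Kcnq1, the gene of the slow delayed rectifier pore, depended on the probe set. The set with the higher mean read 323, 194 and 247 in infarct and 400.2, 525 and 279.6 in sham at 48 h. These overlap, and the call (-0.56 ± 0.23, adjusted p = 0.042) was lost without sham array 1 (-0.54), sham array 2 (-0.37), infarct array 2 (-0.42) or infarct array 3 (-0.52). The second set was lower in infarct, with -1.08 at 24 h, -0.80 at 48 h and -1.30 at 1 week, and in remote, with -0.68 at 24 h and -0.53 at 1 week. Kcnd3, the other measured transient outward gene, varied widely within groups, from 43.4 to 334 over the sham arrays at 1 h. Its infarct arrays at 1 week read 24.3, 24.8 and 27.9 against 86.9, 174 and 82.8 in sham, and the difference of -1.12 ± 0.51 was not called. Kcns2, a silent subunit gene, was not called against sham. Kcna4 was near background.

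**Figure D2:**
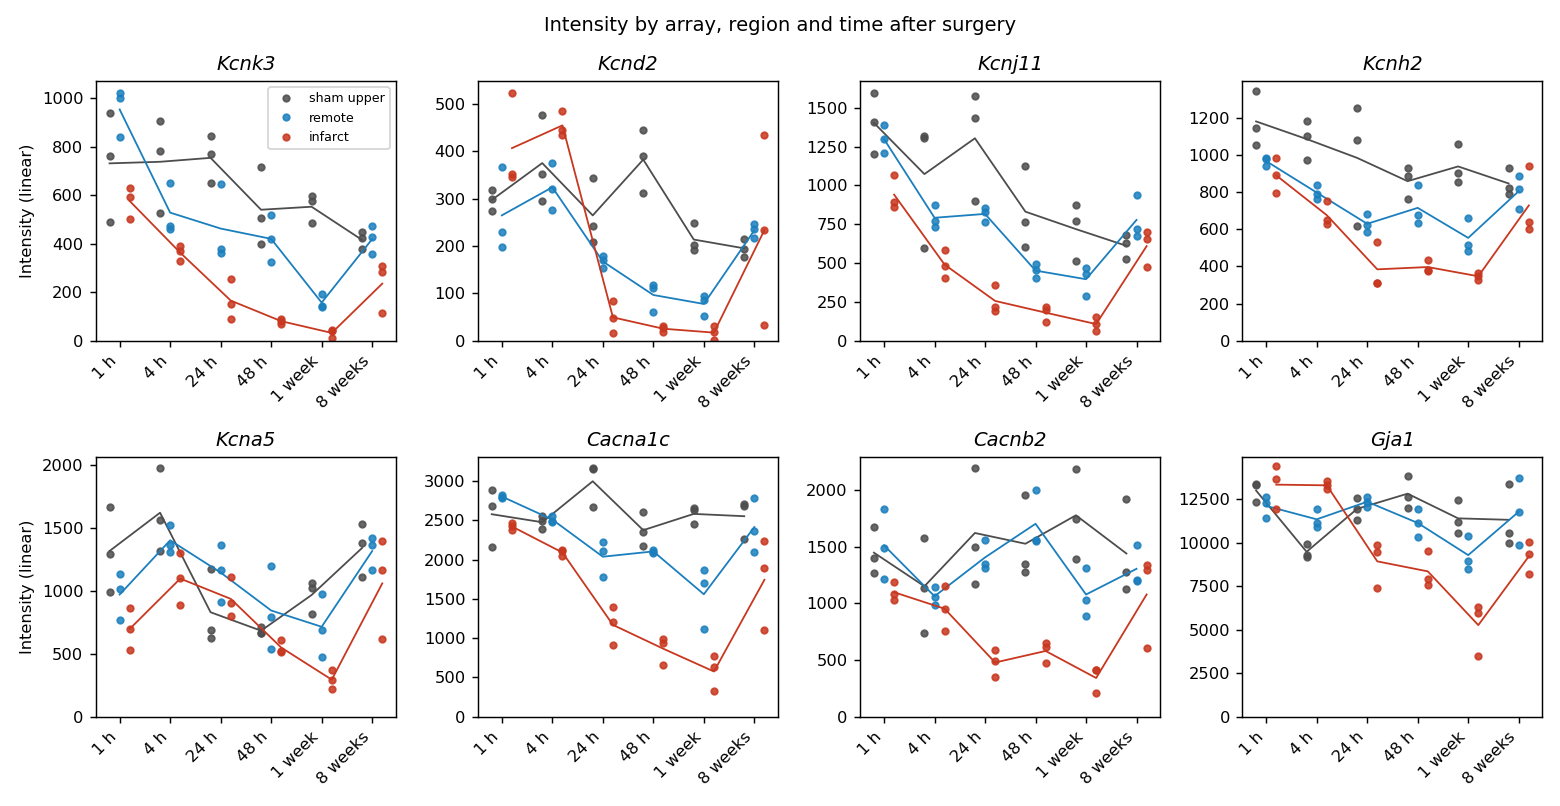
Intensity (linear, arbitrary units) of 8 genes on every array against time after surgery, with grey for sham upper, blue for remote and red for infarct, points for arrays (3 per region and time) and lines through the means. Infarct points lie at or below the others from 24 h to 1 week for most of these genes, remote points lie between for Kcnk3 and Kcnd2, and the 8 week infarct points of Kcnd2 and Cacna1c are widely spread.

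Inward rectifier genes have channels that hold the resting potential or link it to metabolism. Of them, 3 of 5 measured genes were called lower in infarct at 1 week (Kcnj11, Kcnj12 and Kcnj8), beside 25.7% of all genes. Kcnj11 encodes the pore of the cardiac channel that ATP closes. It read 481, 586 and 404 in infarct against 1307, 594 and 1318 in sham at 4 h, 194, 218 and 358 against 1573, 1437 and 901 at 24 h, and 107.9, 152 and 63.8 against 515.4, 874 and 768 at 1 week. The groups were apart each time, with differences of -0.99 ± 0.25 (adjusted p = 0.0059), -2.16 ± 0.25 (adjusted p = 4.1e-09) and -2.33 ± 0.25 (adjusted p = 1.4e-10). The 4 h call was lost without sham array 1 (-0.82) or sham array 3 (-0.81). At 8 weeks infarct (653, 700.1 and 476) and sham (524, 629 and 682) overlap, with a difference of -0.01 ± 0.25. In remote tissue the differences were -0.78 ± 0.25 (adjusted p = 0.044) at 48 h and -0.79 ± 0.25 (adjusted p = 0.012) at 1 week. The 48 h remote call was lost without sham array 1 (-0.81), sham array 2 (-0.55), remote array 2 (-0.76) or remote array 3 (-0.70), and the 1 week call without sham array 2 (-0.64) or remote array 3 (-0.62).

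Kcnj12, a pore gene of the classical inward rectifier current, read 74.4, 47.9 and 49.4 in infarct and 173, 227 and 176 in sham at 48 h, and 47.2, 48.3 and 29.4 against 166, 170.0 and 146 at 1 week. Neither pair overlaps, and the differences were -1.21 ± 0.17 (adjusted p = 1.7e-07) and -1.25 ± 0.17 (adjusted p = 5.1e-08), after -1.03 at 24 h. Its remote arrays at 1 week read 84.5, 131 and 86.2 (-0.51 ± 0.17, adjusted p = 0.018), a call lost without sham array 1 (-0.49), sham array 2 (-0.47), remote array 1 (-0.42) or remote array 3 (-0.46). Kcnj8, the gene of the ATP-sensitive channel pore of vascular muscle, read 426, 251 and 213 in infarct, 476, 407 and 416 in remote and 819.5, 764 and 760.5 in sham at 1 week. Both regions lay below sham, with differences of -1.32 ± 0.19 (adjusted p = 1.0e-07) and -0.79 ± 0.19 (adjusted p = 9.3e-04). At 48 h the infarct difference of -0.70 ± 0.19 lost its call without infarct array 1 (-0.43). Kcnj4 and Kcnj9 were not called against sham at any time. A second Kcnj9 probe set was higher in infarct at 4 h, by 0.98.

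Kcnk3 encodes a two-pore background channel that acid closes, and it fell in infarct tissue from 4 h to 1 week and again differed at 8 weeks. From 48 h to 1 week all its infarct values lay below the limit for measured genes, so the size of those falls is approximate. Infarct arrays read 631, 593 and 503 at 1 h against 940.5, 491 and 762 in sham, and had a mean of 363.1 ± 30.6 against 738 ± 192 (SD, n = 3 each) at 4 h. At 48 h they read 70.4, 82.4 and 89.9 against 505, 715 and 400.1, and at 1 week 40.8, 45.2 and 11.8 against 487, 595 and 576. The groups overlap at 1 h and are apart from 4 h on. The differences were -0.91 ± 0.26 (adjusted p = 0.014), -1.97 ± 0.26 (adjusted p = 5.0e-08), -2.18 ± 0.26 (adjusted p = 3.1e-09) and -2.96 ± 0.26 (adjusted p = 4.7e-13) at 4 h, 24 h, 48 h and 1 week. Without infarct array 3 the 1 week value was -2.76. The 4 h call was lost without sham array 2 (-0.75), sham array 3 (-0.86) or infarct array 1 (-0.86).

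Remote tissue kept Kcnk3 at 324, 418 and 518.3 at 48 h, which overlaps sham, and fell to 139, 192 and 142 at 1 week (-1.56 ± 0.26, adjusted p = 6.2e-06). At 8 weeks the remote arrays (357, 429 and 472) again overlap sham (378, 423 and 446), while infarct read 307, 285 and 115 (-0.79 ± 0.26, adjusted p = 0.023). The 8 week infarct call was lost without sham array 2 (-0.78), sham array 3 (-0.75) or infarct array 3 (-0.42).

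Kcnk2, the gene of a stretch-activated two-pore channel, went down and then up. It read 88.1, 126 and 89.2 in infarct against 182, 161 and 136 in sham at 48 h (-0.49 ± 0.18, adjusted p = 0.02) and 182, 200 and 139 against 107, 84.3 and 148 at 1 week (0.48 ± 0.18, adjusted p = 0.02). The 1 week infarct arrays overlap sham, and both calls were lost without single arrays: at 48 h sham array 1 (-0.41), infarct array 1 (-0.44) or infarct array 3 (-0.42), at 1 week sham array 2 (0.34), infarct array 1 (0.43) or infarct array 2 (0.39). The remote rise at 1 week, to 185, 208 and 251, did not overlap sham (0.73 ± 0.18, adjusted p = 0.0012) and was kept without any single array, but against the sham lower array alone it was 0.32 and not called. Kcnk7 was lower in infarct at 48 h, at 148, 120.3 and 131 against 280.5, 345 and 236 (-0.89 ± 0.23, adjusted p = 0.0015). Kcnk1 and Kcnk4 were not called against sham.

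Calcium-activated potassium channel genes included the clearest rise among the measured genes. Kcnn4, whose channel is known from immune cells and dividing fibroblasts, read 258, 283 and 188 in infarct and 130, 206 and 179 in sham at 48 h, which overlap. At 1 week it read 381, 411 and 426 in infarct, 306, 304 and 309 in remote and 143, 107 and 117 in sham. Every infarct and remote array then lay above every sham array, with differences of 1.43 ± 0.21 (adjusted p = 1.1e-07) and 1.08 ± 0.21 (adjusted p = 6.3e-05). By 8 weeks infarct read 179.9, 184 and 239.7 against 251, 292 and 170.4. Macrophage markers moved in the same samples: their summed intensity at 1 week was 19493 to 22103 in infarct, 10314 to 16060.4 in remote and 2404 to 3203 in sham, and their part in the Kcnn4 result was not tested.

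The 200 bases upstream of Kcnn4, a measured gene that rose, lie at chr7:24370063-24370262 (plus strand), inside the annotated gene (24369826 to 24385212) and before an internal transcript start.
Kcnn4: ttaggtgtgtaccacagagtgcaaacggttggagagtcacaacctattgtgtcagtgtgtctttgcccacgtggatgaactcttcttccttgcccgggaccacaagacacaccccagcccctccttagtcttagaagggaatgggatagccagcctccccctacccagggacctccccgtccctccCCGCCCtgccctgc
The capitals mark 1 GC box on the opposite strand, 14 to 9 bases before the start, and none of the other 5 motifs matched in this stretch.

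Kcnn1, a small-conductance channel gene, was lower in remote tissue at 1 week, at 81.1, 300.4 and 218 against 397, 344 and 344 (-0.85 ± 0.34, adjusted p = 0.042). The arrays do not overlap, but the call was lost without sham array 1 (-0.79), sham array 2 (-0.88), sham array 3 (-0.88), remote array 1 (-0.43) or remote array 3 (-0.95). Its infarct difference was not called at any time. Kcnma1, the large-conductance channel gene, read 55.5, 56.0 and 81.2 in infarct and 146, 132 and 85.6 in sham at 48 h (-0.59 ± 0.22, adjusted p = 0.024). That call was lost without sham array 1 (-0.48), sham array 2 (-0.54), infarct array 1 (-0.58) or infarct array 2 (-0.52).

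Of the pacemaker channel genes in infarct tissue, Hcn2 was lower at 48 h, 1 week and 8 weeks, and Hcn3 was higher at 1 h, 24 h and 8 weeks. Hcn2 read 1332, 1397 and 1670.5 in infarct against 3078, 2914 and 2258 in sham at 48 h, 1164, 1096 and 1025 against 1709.6, 2258 and 2387 at 1 week, and 1907, 1907 and 1614 against 2866, 2482 and 3159 at 8 weeks. No pair overlaps, and the differences were -0.88 ± 0.15 (adjusted p = 4.3e-06), -0.91 ± 0.15 (adjusted p = 1.5e-06) and -0.63 ± 0.15 (adjusted p = 0.0024). A second Hcn2 probe set differed from sham by -0.77 at 24 h, -2.20 at 48 h and -2.81 at 1 week, and in remote tissue by -0.83 at 48 h and -1.27 at 1 week. The first set's remote fall at 1 week (-0.43 ± 0.15, adjusted p = 0.021) was lost without sham array 2 (-0.38), sham array 3 (-0.34), remote array 2 (-0.39) or remote array 3 (-0.30).

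Hcn3 was higher in infarct at 1 h, at 532, 448 and 612 against 313, 318 and 319.8 (0.66 ± 0.19, adjusted p = 0.029), at 24 h, at 405, 553 and 564 against 356, 286 and 350.3 (0.54 ± 0.19, adjusted p = 0.019), and at 8 weeks, at 576, 536 and 584 against 235, 312 and 465 (0.72 ± 0.19, adjusted p = 0.006). The groups do not overlap at these times. In remote tissue it was lower at 48 h, at 259.7, 188 and 321 against 462, 496 and 389.5 (-0.73 ± 0.19, adjusted p = 0.011). Against the sham lower array alone, which lies below the artery as the infarct piece does, the infarct difference of Hcn3 was -0.06 at 1 h and 0.09 at 24 h, and neither was called. Single arrays also decided these calls: the 1 h call was lost without sham array 1 (0.65), sham array 2 (0.66), sham array 3 (0.66), infarct array 1 (0.66) or infarct array 3 (0.54), the 24 h call without sham array 2 (0.46), infarct array 2 (0.47) or infarct array 3 (0.46), the 8 week call without sham array 1 (0.52), and the remote call without sham array 2 (-0.66) or remote array 2 (-0.56).

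Of the chloride transport genes, Clcn3, Clcn4, Clcn5 and Clcn7 encode exchangers of endosomes and lysosomes, and Clcn2 a channel of the cell membrane. Clcn3 read 1061, 907 and 712 in infarct and 1553, 1906 and 2008 in sham at 24 h, and 1172, 1176 and 1169 against 1778, 1654 and 1625 at 8 weeks. The groups are apart at both times and at 48 h and 1 week between them, called at 24 h (adjusted p = 8.6e-08) and with differences of -0.54 ± 0.13 (adjusted p = 8.0e-04), -1.09 ± 0.13 (adjusted p = 3.6e-09) and -0.51 ± 0.13 (adjusted p = 0.006) at 48 h, 1 week and 8 weeks. Clcn3, Cacna1c and Kcnk3 were the 3 measured genes called lower at all of 24 h, 48 h, 1 week and 8 weeks. The share of all genes lower at all these times was not counted, so this is not read as a trait of these genes. The 8 week call of Clcn3 was lost with the mean of its probe sets or with only the 2 groups fitted. The 8 week calls of Cacna1c and Kcnk3 were lost without single arrays, as given above. Remote Clcn3 was lower at 1 week, at 1266, 1015 and 1154 against 1776, 1467 and 1609.8 (-0.48 ± 0.13, adjusted p = 0.0037). The other 3 Clcn3 probe sets were also called lower in infarct at 24 h and 1 week.

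Clcn7 read 450.5, 471 and 454 in infarct and 727, 658 and 695 in sham at 4 h, and 460.0, 449 and 411 against 659, 752 and 765 at 1 week, without overlap, with differences of -0.55 ± 0.12 (adjusted p = 0.0012) and -0.67 ± 0.12 (adjusted p = 5.3e-06). A second Clcn7 probe set was called at no time. Clcn4 was lowest at 24 h, with 483, 441 and 497 against 759, 696 and 790.1 (-0.61 ± 0.12, adjusted p = 4.9e-05), and its 48 h call (-0.36) was lost without sham array 2 (-0.28). Clcn2 read 61.0, 61.9 and 102 in infarct and 96.5, 112 and 74.2 in sham at 48 h, and was not called against sham at any time in either region.

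Clcn5 was near background in sham and brighter in infarct tissue. It passed the filter on low values through the groups where it was bright, so its values are given with no test. Its arrays read 201, 245 and 109 in infarct against 54.9, 20.8 and 58.4 in sham at 24 h, 314, 347 and 223 against 45.9, 42.1 and 44.0 at 48 h, and 353, 320.0 and 420.5 against 82.7, 82.2 and 67.5 at 1 week. The log2 differences were 1.34, 1.91 and 1.73. The groups are apart each time, but Clcn5 was named for a call without overlap, so this supports nothing. Remote tissue at 1 week read 159, 215 and 273, a difference of 1.07. A second Clcn5 probe set was called at no time.

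Gja1, which encodes the main ventricular connexin and was the brightest of the 78 genes, rose before it fell. At 4 h it read 13067, 13289.8 and 13535 in infarct and 9169, 9314 and 9942 in sham, with every infarct array above every sham array (0.49 ± 0.14, adjusted p = 0.019). At 24 h it read 9881, 9471 and 7419 against 11298, 11949 and 12585, at 48 h 7583, 7932 and 9531 against 13854, 11969 and 12632, and at 1 week 6321, 5948 and 3505 against 12448, 10547 and 11198. All infarct arrays then lay below all sham arrays, with differences of -0.43 ± 0.14 (adjusted p = 0.013), -0.62 ± 0.14 (adjusted p = 3.5e-04) and -1.15 ± 0.14 (adjusted p = 3.9e-09). Without infarct array 3 the 1 week value was -0.90.

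The 4 h sham arrays of Gja1 were the lowest of its 6 sham groups; the remote arrays at 4 h read 10926, 11154 and 11947 and were not called. The 4 h rise lost its call without sham array 1 (0.46), sham array 2 (0.48), infarct array 2 (0.49) or infarct array 3 (0.48), while a second Gja1 probe set rose by 0.90 at 4 h and differed by -0.75 at 1 week. Against the single sham lower array the 4 h difference of 0.43 was not called. The 24 h call was lost without sham array 3 (-0.39) or infarct array 3 (-0.30), and it and the 48 h call were lost with quantile normalization. Remote Gja1 was not called at any time by the brighter set, with 10411, 8958 and 8478 at 1 week, and the second set differed there by -0.64. At 8 weeks infarct read 10047, 9375 and 8218 against 13395, 10570.1 and 9979.6, a difference of -0.29 ± 0.14 that was not called.

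The 200 bases upstream of Gja1, one of the 2 measured genes called in both directions, lie at chr10:56377100-56377299 (plus strand).
Gja1: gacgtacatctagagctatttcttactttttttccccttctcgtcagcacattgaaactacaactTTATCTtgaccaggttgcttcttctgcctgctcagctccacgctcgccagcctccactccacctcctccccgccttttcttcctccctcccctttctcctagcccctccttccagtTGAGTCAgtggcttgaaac
The capitals mark an AP-1 site, TGAGTCA, 19 to 13 bases before the start, and a GATA site on the opposite strand, TTATCT, 135 to 130 bases before it.

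Gja4 and Gja5, connexin genes of arterial endothelium, the latter also of atria and conduction fibres, were not called at any time in either region. Their infarct arrays at 1 week read 304, 244 and 294 and 158, 126 and 179.5, against 197, 255 and 202 and 57.2, 123 and 128 in sham. Gjb5, a connexin gene of epithelia, was higher in infarct at 1 week, at 139, 163 and 226 against 86.2, 76.1 and 87.4 (0.76 ± 0.22, adjusted p = 0.0027), close to the limit for measured genes. That call was lost with quantile normalization.

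**Figure D3:**
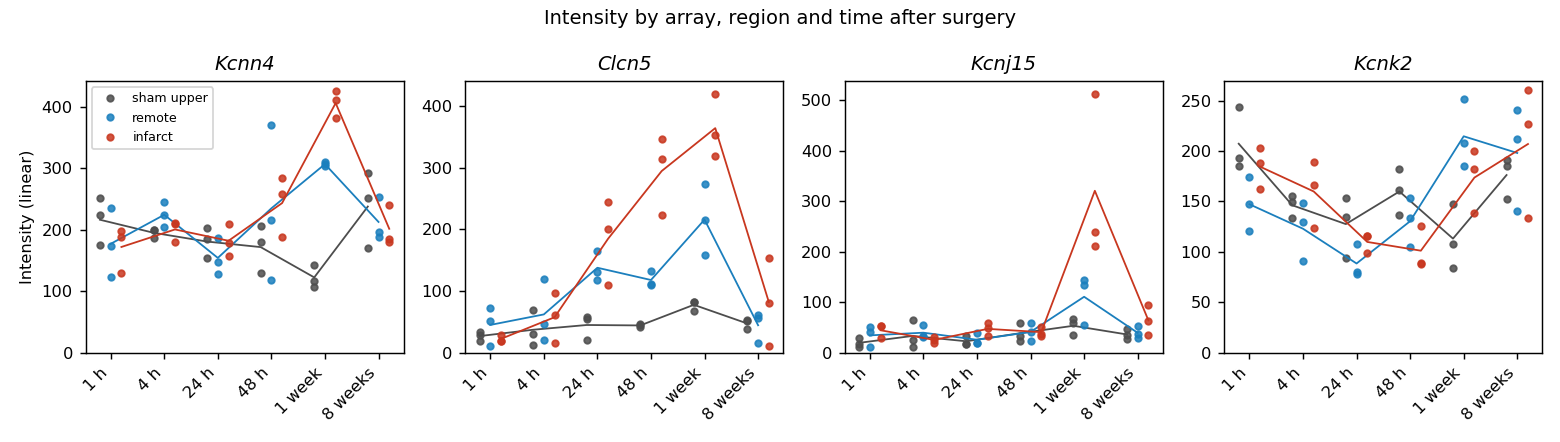
Intensity (linear, arbitrary units) of Kcnn4, Clcn5, Kcnj15 and Kcnk2 on every array against time after surgery, with grey for sham upper, blue for remote and red for infarct, points for arrays (3 per region and time) and lines through the means. At 1 week the infarct points of Kcnn4, Clcn5 and Kcnj15 lie above the sham points. Clcn5 and Kcnj15 are near-background genes that were tested because they are bright in some groups.

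Of the 43 near-background genes, 15 passed the filter on low values (the same limit on at least 3 arrays) and were tested. A gene that passes through one bright group had to differ there, so these genes are described by their values and log2 differences, with no test. Those with differences given were named for a call at a time when the groups did not overlap, so their separation supports nothing. Besides Clcn5, Kcnj15, an inward rectifier gene, read 210.5, 238 and 513 in infarct against 66.2, 58.6 and 34.2 in sham at 1 week, a difference of 1.82, and of 1.49 without infarct array 3. Its second probe set differed by 2.66. Kcnj5, a pore gene of the acetylcholine-gated current, read 8.0, 11.5 and 30.0 in infarct against 204, 140.3 and 114 at 48 h, a difference of -1.67, beside -1.42 at 24 h and -1.59 at 1 week.

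Kcnj3, the partner of Kcnj5, read 29.0, 30.5 and 19.1 in infarct against 63.3, 97.5 and 88.2 in sham at 1 week (-0.83). Scn10a, a sodium channel gene of sensory neurons, read 9.1, 5.7 and 7.4 against 68.9, 87.5 and 106 (-1.32), and Kcna7 read 75.6, 51.9 and 65.7 against 107.7, 148 and 135 (-0.67). In these 3 genes all infarct arrays lay below all sham arrays, a separation that was itself a ground for naming them. The 1 week difference of Gjc1 was -0.62, and that of Cacng2 was 0.80, or 0.49 without infarct array 3. At 1 h the infarct differences of Kcnj6, Cacna1e and Kcnab2 were -1.01, -0.89 and -0.80. The second Kcnab2 probe set differed the other way at later times, by 1.34 at 48 h and 1.69 at 1 week in infarct, and by 0.94 at 1 week in remote tissue. Kcnj2, Kcne1, Kcna4, Cacna1g and Cacna1h, which serve cardiac currents, were near background.

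Remote tissue was compared with the same sham arrays as infarct tissue, so the 2 comparisons share their controls. None of the 35 genes was called in remote tissue at 1 h, 4 h, 24 h or 8 weeks by limma, beside 8.02%, 1.74%, 4.5% and 0.12% of all genes, while 10, 3, 8 and 1 had an unadjusted p below 0.05, beside 24.0%, 12.4%, 18.0% and 8.17% of all genes. At 48 h 3 were lower (Kcnd2, Kcnj11 and Hcn3), beside 4.47% higher and 4.35% lower over all genes, 8.82% together. At 1 week 12 were lower and 2 higher, beside 20.7% higher and 17.7% lower over all genes, 38.4% together. The 12 were Cacna1c, Cacna1s, Cacnb2, Clcn3, Hcn2, Kcnd2, Kcnh2, Kcnj11, Kcnj12, Kcnj8, Kcnk3 and Kcnn1, and the 2 were Kcnn4 and Kcnk2. 11 of the 12 were also called lower in infarct at 1 week, Kcnn1 being the exception. This overlap was not counted over all genes and rests on shared sham arrays, so it is not read as a trait of these genes. Without single arrays the 1 week remote count ranged from 8 to 12.

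Infarct was also set directly against remote tissue, which lay higher in the ventricle. In sham mice Hcn3 was higher in the lower piece in 5 of 5 pairs (0.49 ± 0.12). The part of position in its differences here was not tested. At 48 h Hcn3 was not called between infarct and sham, while remote Hcn3 was lower than sham (-0.73). At 24 h 10 of 35 genes were lower and 1 (Hcn3) higher, beside 15.5% higher and 17.8% lower over all genes, 33.3% together. The Clcn4 call at 24 h was lost without infarct array 2 (-0.28) or remote array 3 (-0.27). At 48 h 19 were lower and 1 (Hcn3) higher, beside 24.4% higher and 23.6% lower over all genes, 48.1% together, and at 1 week 15 were lower and none higher, beside 22.8% higher and 18.4% lower over all genes, 41.2% together. The largest 1 week differences were Cacnb2 -1.58 ± 0.24 (adjusted p = 1.6e-06), Kcnj11 -1.54 ± 0.23 (adjusted p = 9.4e-07), Cacna1c -1.42 ± 0.18 (adjusted p = 3.3e-08) and Kcnk3 -1.40 ± 0.24 (adjusted p = 7.2e-06). Kcnd2 differed by -0.99 ± 0.30 (adjusted p = 0.0077), a call lost without infarct array 3 (-0.78). The Kcnj8 difference of -0.53 ± 0.18 (adjusted p = 0.014) lost its call without infarct array 2 (-0.46) or infarct array 3 (-0.36). Kcnn4 was not called between infarct and remote (0.36 ± 0.19). The 1 h call of Kcns2 was lost without any 1 of the 6 arrays, remote array 2 included (0.56), and that of Hcn3 without infarct array 1 (0.62), infarct array 3 (0.50), remote array 1 (0.65) or remote array 3 (0.49). At 1 h these 2 genes were higher, beside 3.16% higher and 1.92% lower over all genes, 5.08% together, at 4 h none was called (1.42%; 4 with an unadjusted p below 0.05, beside 13.1% of all genes), and at 8 weeks Kcnk3 and Hcn2 were lower, beside 3.78% higher and 2.71% lower over all genes, 6.49% together. The 8 week call of Kcnk3 (-0.80 ± 0.24) was lost without infarct array 3 (-0.42), remote array 2 (-0.81) or remote array 3 (-0.67), and that of Hcn2 (-0.45 ± 0.14) without infarct array 2 (-0.49), infarct array 3 (-0.37), remote array 1 (-0.52), remote array 2 (-0.43) or remote array 3 (-0.40). The Hcn2 call was also lost with quantile normalization and without the filter on low values, and the Kcnk3 call with the smaller offset.

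Position in the ventricle was measured in sham mice, in 5 pairs of a lower and an upper piece that share a title number. No gene of the 35 was called (limma with the pair as a block; 0.0% of all genes called), and 6 of 35 had an unadjusted p below 0.05 (14.4% of all genes). All 5 pairs went the same way for 10 of 35 genes (14.7% of all genes). Kcnd2 was higher in the lower piece in 5 of 5 pairs, at 383 to 615 against 208 to 389.4, a difference of 0.65 ± 0.11 (adjusted p = 0.17). Hcn3 (0.49 ± 0.12) and Kcnk4 (0.53 ± 0.14) were also higher in 5 of 5 pairs, with adjusted p of 0.18 and 0.2. Kcnk3 was lower in the lower piece in 5 of 5 pairs, at 357 to 635 against 528 to 762 (-0.52 ± 0.15; adjusted p = 0.21), and so was Kcnj11 (-0.47 ± 0.13; adjusted p = 0.21).

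**Figure D4:**
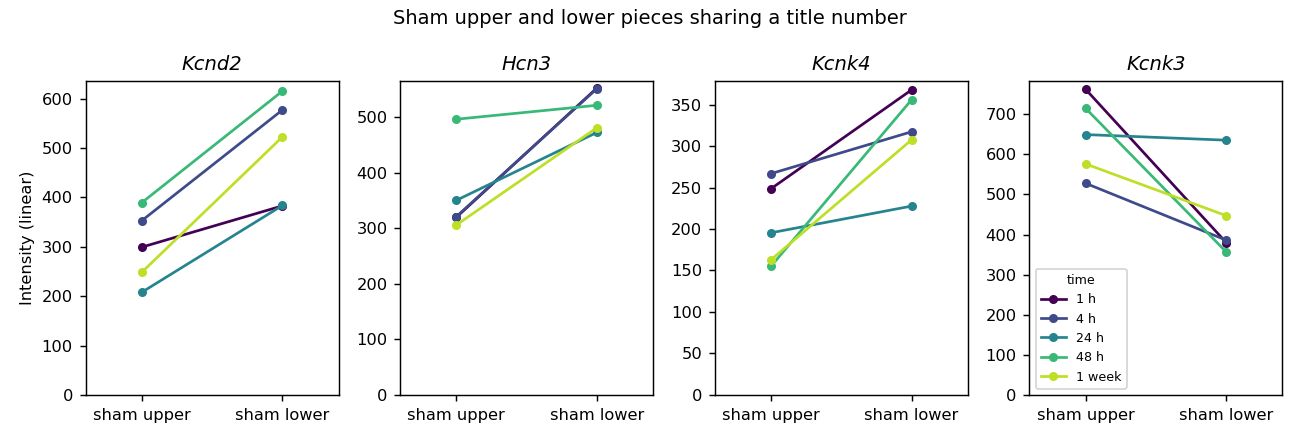
Intensity (linear, arbitrary units) of Kcnd2, Hcn3, Kcnk4 and Kcnk3 in the upper and lower pieces of sham ventricle, with a line for each of the 5 pairs that share a title number, coloured by time after surgery. Lines rise from upper to lower for Kcnd2, Hcn3 and Kcnk4 and fall for Kcnk3, in 5 of 5 pairs each.

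Taking the lower piece as control shifted single values. Against the sham lower array alone, 1 array per time, the infarct fall of Kcnd2 was -3.21 at 48 h and -3.18 at 1 week, and that of Kcnk3 -1.61 and -2.68. Kcnj11 gave -1.60 at 24 h and -2.32 at 1 week, Cacna1c -1.07 and -2.10, Kcnh2 -1.21 and -1.26, and Gja1 -0.87 and -1.37. All of these passed the test, but with 1 control array at each time the spread came from the other groups of the fit, and the lone array was assumed to vary like them. At 4 h, the falls of Kcnk3 (-0.14), Kcnj11 (-0.52), Kcnh2 (-0.76) and Clcn7 (-0.23) were not called against the lower array. Of the 12 remote falls at 1 week, 7 lost their call against the lower array: Cacna1c (-0.68), Cacnb2 (-0.57), Kcnj11 (-0.78), Cacna1s (-0.25), Clcn3 (-0.40), Kcnj8 (-0.49) and Kcnn1 (-0.84). The other 5 were Kcnd2 (-2.19), Kcnk3 (-1.28), Kcnh2 (-0.66), Kcnj12 (-1.07) and Hcn2 (-0.66).

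Genes whose products work with these channels were described from 5 lists, at 1 week in infarct, beside 25.7% lower and 34.9% higher over all genes and a median of 0.11. Of 15 tested intercalated disc and gap junction genes, 12 were lower and 2 higher (median -1.19), among them the desmosomal cadherins Dsg2 (-2.15) and Dsc2 (-1.92). Of 10 sarcoplasmic reticulum calcium genes, 6 were lower and 3 higher (median -1.18), including Hrc (-4.14), the calcium pump gene Atp2a2 (-2.42) and the release channel gene Ryr2 (-2.21), which is also one of the 7 cardiomyocyte markers. Of 10 transcription factor genes, 8 were lower and 1 higher (median -0.91), with Nkx2-5 at -1.73 and Irx3, a regulator of conduction genes, at -1.34. Of 6 pump and exchanger genes, 2 were lower and 2 higher, with the sodium-calcium exchanger gene Slc8a1 at -1.16. Of 16 other channel genes, 6 were lower and 5 higher, with the water channel gene Aqp1 at -2.21 and the ATP-gated channel gene P2rx4 at 2.07. Apart from P2rx4, the genes named from these lists are ones that fell, and the higher ones are given by count only.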

How the data were processed

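Total RNA of 59 mouse left ventricle samples was measured on 1 Affymetrix array each. The deposited values are linear probe set intensities that the authors scaled to nearly equal trimmed means, as the values show. The labels name neither the tool nor the target of that scaling. Of 12488 probe sets, 10833 named 1 gene (8251 genes), 1193 none and 396 several, and 66 were controls. The probe set with the highest mean stood for a gene, since sets of a gene differ in brightness. Values were transformed to log2(intensity + 45.6), the offset being 0.25 times the median of 182.4, and 6670 genes with an intensity of at least 108.2 on 3 or more arrays were tested. limma 3.58.1 in R 4.3.3 fitted the 23 groups of region and time together, with the sample number as a random block (duplicateCorrelation) and eBayes. Same-numbered infarct and remote samples deviated together (r above 0.1) in 3 of 3 pairs at 1 week (0.219 to 0.418). They did so in 2 of 3 at 48 h and at 8 weeks, and in 0 of 8 from 1 h to 24 h. The block nevertheless gave same-numbered samples 1 common correlation, 0.148, at every time. Benjamini-Hochberg adjustment ran over all tested genes of a comparison. The sham pieces were compared in 5 pairs with the number as a fixed block. The array's precision is limited by 3 arrays per group.

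All measured genes are named, and array values are given for a panel of cardiac action potential and conduction genes and for genes called at a time when the groups did not overlap. Genes of interest and all gene lists were chosen with earlier results of these data known. In simulated data with this design (infarct against sham, 24 h, 6670 genes, 50 of them changed at each size), 38% of changes of 0.5 log2 units, 84% of 1 unit and 100% of 2 units were recovered. In the data 42.6% of genes were called in this comparison, far more than were changed in the simulation, so these rates need not hold here. Alternatives covered the offset, quantile normalization, the filter, the probe set rule, the block, the arrays in the fit, the sham piece used as control, the limit for measured genes and each array left out. Upstream sequences came from RefSeq, build GRCm38.p6, matched by Entrez gene identifier. Windows were found for 30 of the 35 measured genes. Figures were drawn with matplotlib 3.10.9 in Python 3.11.15.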

Additional observations from a re-analysis of the deposited data

Results flagged for a closer look

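The difference between infarct and sham tissue changed over the 6 times for the following genes, by a moderated F test in limma over the 6 differences (adjusted p in parentheses). Measured genes among them with a called fall of more than 0.5 log2 units at 1 or more times were Cacna1c (5.4e-08), Kcnd2 (1.1e-07), Kcnk3 (1.4e-07), Gja1 (1.6e-07), Kcnj11 (3.6e-07), Cacnb2 (1.5e-05), Clcn3 (5.6e-05), Kcnj12 (5.9e-05), Kcnj8 (1.1e-04), Hcn2 (1.6e-04), Kcnh2 (2.7e-04), Cacna2d1 (2.8e-04), Clcn4 (8.8e-04), Kcna5 (0.0013), Cacna1s (0.013), Kcnk7 (0.019) and Clcn7 (0.023). As examples, Gja1 differed by 0.49 at 4 h and -1.15 at 1 week, and Clcn3 by -0.19 and -1.09.

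The other measured genes were Kcnn4 (2.5e-05), Kcnk2 (0.022), Gjb5 (0.045) and Scn7a (0.023). Kcnn4 differed from sham by 0.01 at 24 h and 1.43 at 1 week, Kcnk2 by -0.49 at 48 h and 0.48 at 1 week, and Scn7a, never called at a single time, by -0.46 at 48 h and 0.32 at 1 week.

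Near background, the test named Kcnj15 (1.5e-04), Clcn5 (4.9e-04), Kcnj5 (0.0013), Cacna1e (0.0051), Cacng2 (0.0054), Kcnab2 (0.009), Gjc1 (0.013), Kcna7 (0.014) and Kcnj6 (0.028). These genes passed the filter on low values through the groups where they were brightest, so their p-values support nothing here.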

How the results depend on the processing

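The counts of measured genes called that moved by more than 1.5 times were these. Infarct against remote at 1 h gave 2 genes, and 1 with quantile normalization, 0 with no replicate block, with a fixed replicate block or with only the 2 groups fitted. At 48 h it gave 20, and 13 with only the 2 groups fitted. At 8 weeks it gave 2, and 1 with the smaller offset, quantile normalization, no filter or a fixed replicate block, and 0 with no replicate block or only the 2 groups fitted. Infarct against sham at 1 h gave 2, and 1 with the mean of a gene's probe sets, 0 with only the 2 groups fitted, with both sham pieces as control or with the lower piece alone. At 4 h it gave 5, and 0 against the lower piece alone, and at 8 weeks 5, and 0 with only the 2 groups fitted. Remote against sham gave 0 at 24 h, and 1 with the larger offset or no replicate block and 2 with both sham pieces. At 48 h it gave 3, and 1 with only the 2 groups fitted and 5 with both sham pieces, and at 1 week 14, and 7 against the lower piece alone. Sham tissue over time gave 7, and 11 with the larger offset. A limit of 54 in place of the one used left 55 measured genes and a limit of 216 left 21. Hcn3 at 1 h turned from 0.66 to -0.06 against the lower piece alone.

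With each array left out in turn, infarct against sham gave 0 to 2 genes at 1 h, 3 to 4 at 4 h, 10 to 12 at 24 h, 16 to 19 at 48 h, 17 to 18 at 1 week and 3 to 6 at 8 weeks. Remote against sham gave 0 to 1 at 24 h, 1 to 4 at 48 h and 8 to 12 at 1 week, and 0 throughout at 1 h, 4 h and 8 weeks. Infarct against remote gave 0 to 1 at 1 h, 10 to 13 at 24 h, 14 to 18 at 48 h, 13 to 16 at 1 week and 0 to 6 at 8 weeks, and 0 throughout at 4 h. Of the single-gene calls in the 3 comparisons, 13 of 158 were lost with quantile normalization, 41 of 158 with only the 2 groups fitted, 38 of 96 against the lower piece alone and 173 of 948 over all single omissions, and the Hcn3 value above was the only one that turned. The cause of these changes was not tested, beyond fewer arrays in those fits. The single-gene calls counted here include those of near-background genes, which are described in the results with no test. Quantile normalization shifted the median of all genes by -0.18 in infarct and -0.12 in remote tissue at 1 week. The share of called genes that were higher went from 57.6% to 47.7% in infarct.

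With the number as a fixed replicate block, 9 of 57 infarct against remote calls were lost: Hcn3 and Kcns2 at 1 h, Hcn3, Gja1 and Clcn4 at 24 h, Kcnj4, Kcnj6 and Kcnma1 at 48 h and Hcn2 at 8 weeks, and none at 1 week. The 57 include calls of near-background genes, Kcnj6 among them.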

Other observations

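Sham upper tissue itself differed between the 6 times for 7 of the 35 measured genes (moderated F test in limma; 20.4% of all genes): Kcnj11, Kcnk4, Kcna5, Hcn2, Cacna1b, Kcns2 and Kcnk2. Kcna5 read 1289, 1665 and 992 at 1 h, 685, 625 and 1176 at 24 h and 1060.2, 813 and 1023 at 1 week. Kcnj11 read 1409, 1204 and 1595 at 1 h, 1307, 594 and 1318 at 4 h and 524, 629 and 682 at 8 weeks. Kcnk4, a two-pore channel gene that was not called in infarct or remote tissue, read 392.1, 252 and 248 at 1 h and 161, 144 and 195 at 24 h. The adjusted p was 0.0035 for Kcnj11, 0.0038 for Kcnk4, 0.0039 for Kcna5 and 0.0044 for Hcn2. Each infarct or remote value was set against sham of its own time.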
